A study of Drosophila melanogaster with 6 samples.

Results

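The genes described are 10 Drosophila melanogaster sarcomere genes (Mhc, Mlc1, Mlc2, Tm1, Tm2, up, wupA, sls, Act57B and bt), read in wing imaginal discs of larvae at the last, wall-climbing stage. A member was any probe set that the array's probe-to-gene table pairs with 1 gene symbol, that of a listed gene. The rule found 8 probe sets for 6 of the 10 genes, out of 13647 probe sets and 11982 genes with 1 symbol: 1 each for Mlc1, Mlc2, Tm2, up and bt, and 3 for sls. Mhc, Tm1, wupA and Act57B matched no such probe set and were not analysed here.

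The study profiled discs in which lid, the gene for the histone lysine demethylase Kdm5, was depleted. In the LID RNAi group the act5Cgal4 driver, which is active in most tissues, expressed a lid hairpin, and the larvae also carried the lidk06801 allele, so that hairpin and allele cannot be told apart. In the GFP RNAi group the same driver, on a w1118 background, expressed a hairpin against GFP. The wild type group is titled as such and has no RNAi, although its background label also names w1118 and act5Cgal4. The hairpin strains came from NIG-FLY. All larvae were raised at 25 °C to that stage, the third instar, and RNA of 30 whole discs per sample (25 ng of it) was amplified for a one-colour array. Each group has 2 arrays. No label says whether they came from separate dissections, so p-values measure the spread between these arrays, which may be technical.

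The sarcomere is the repeating contractile unit of striated muscle, in which myosin thick filaments slide along actin thin filaments. Troponin and tropomyosin on the thin filament make this sliding depend on calcium, and titin-like proteins tie the thick filaments elastically to the Z discs. The larval wing disc is mostly epithelium. It also carries adult muscle precursors, dividing myoblasts under the notum that express twi and form the flight muscles in the pupa, and pieces of trachea. In bulk tissue, fewer cells of a type and less RNA per cell cannot be told apart, and this holds for every level below.

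Levels are RMA values on the log2 scale, in which a difference of 1 is a doubling. They are compared between groups for 1 probe set at a time and never between probe sets. The median over all probe sets lay between 6.31 and 6.43 on the 6 arrays. Background was set at 4.82, the point below which 95% of the values of 27 bacterial control probe sets fell. The targeted gene, Kdm5, stood at 8.36 and 8.04 in LID RNAi discs, 10.32 and 10.45 in GFP RNAi discs and 10.42 and 10.33 in wild type discs, a fall of 2.19 against GFP RNAi (limma adjusted p = 0.0309). The wing disc epithelium genes vg, ap, tsh and en were bright on every array, with en at 12.21 to 12.30. The gap between the 3′ and 5′ control probe sets for GAPDH, a sign of how complete the amplified RNA is, was widest on LID RNAi replicate 2 at 3.54, against 2.67 to 3.17 on the other 5 arrays.

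Among the thick filament genes, the members' levels split. Mlc1 encodes the essential (alkali) light chain of muscle myosin. Its probe set (1626446_a_at) read 10.53 and 10.05 in LID RNAi discs, 9.72 and 8.71 in GFP RNAi discs and 9.14 and 8.79 in wild type discs. Both LID RNAi arrays lay above all 4 control arrays, while the GFP RNAi arrays spanned the wild type ones. Mlc2 encodes the regulatory light chain of muscle myosin. Its probe set (1625071_a_at) read 6.71 and 6.69 in LID RNAi discs, 6.51 and 7.03 in GFP RNAi discs and 7.12 and 7.20 in wild type discs. Here the wild type arrays were the high ones, and the LID RNAi arrays lay inside the GFP RNAi range.

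Both measured thin filament genes were highest on LID RNAi replicate 1 and lowest on GFP RNAi replicate 2. Tm2 encodes a tropomyosin, the coiled coil that covers myosin-binding sites on actin. Its probe set (1641325_s_at) read 9.69 and 9.09 in LID RNAi discs, 8.74 and 8.24 in GFP RNAi discs and 8.41 and 8.46 in wild type discs. The LID RNAi arrays did not overlap either control. The ending _s_at marks, in the manufacturer's naming, a probe set that transcripts of more than 1 gene can match, and whether others add to the Tm2 signal was not tested. The gene up encodes troponin T, which anchors the troponin complex to tropomyosin. Its probe set (1630261_a_at) read 9.56 and 8.97 in LID RNAi discs, 9.04 and 8.51 in GFP RNAi discs and 8.62 and 8.94 in wild type discs. The LID RNAi arrays overlapped the GFP RNAi arrays and cleared the wild type ones only narrowly.

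The elastic filament genes behaved differently from each other. The gene sls encodes Sallimus, the titin-like family of proteins, kettin among them, that links the Z disc to the thick filament. Probe set 1628671_a_at read 10.45 and 10.78 in LID RNAi discs, 10.12 and 10.33 in GFP RNAi discs and 9.57 and 9.44 in wild type discs. The 3 groups did not overlap, with LID RNAi highest and wild type lowest. Probe set 1635445_at read 9.43 and 9.88 in LID RNAi discs, 9.12 and 9.52 in GFP RNAi discs and 8.34 and 8.53 in wild type discs. The RNAi groups overlapped each other and both lay above wild type. The remaining sls probe set (1634102_at) stayed near background, at 4.94 and 4.60 in LID RNAi discs, 4.90 and 4.62 in GFP RNAi discs and 5.01 and 4.94 in wild type discs. The gene bt encodes projectin, another giant protein of the titin family. Its probe set (1626397_at) read 8.45 and 7.29 in LID RNAi discs, 7.98 and 6.60 in GFP RNAi discs and 7.34 and 7.57 in wild type discs. All groups overlapped, and the spread within each RNAi group was wider than any difference between group means.

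**Figure D1:**
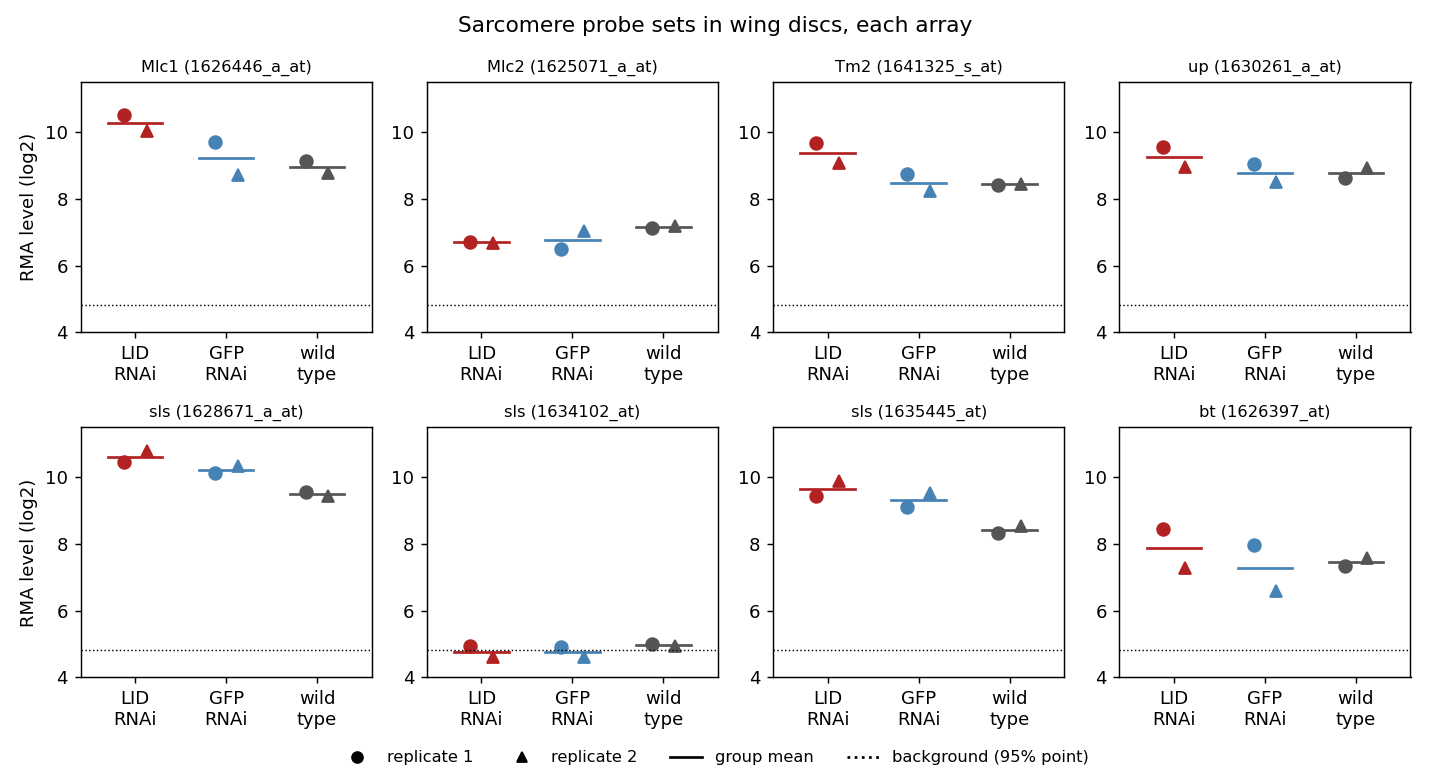
Level of each of the 8 sarcomere probe sets (RMA, log2) on each array, grouped as LID RNAi, GFP RNAi and wild type along the horizontal axis; circles are replicate 1, triangles replicate 2, bars the group mean and the dotted line the background of 4.82. Mlc1 and Tm2 have both LID RNAi arrays above all control arrays, sls 1628671_a_at descends over the 3 groups without overlap, and bt differs more within the RNAi groups than between groups.

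Against GFP RNAi discs, which share the driver and the expression of a hairpin, 7 of the 8 sarcomere probe sets had a higher mean in LID RNAi discs, as did 52.1% of all probe sets, but none passed the test. The call used limma on all 6 arrays with Benjamini-Hochberg adjustment over 18769 probe sets and a threshold of 0.05, by which 0.469% of all probe sets were called. At an unadjusted p under 0.05 there were 3 members (Mlc1, Tm2 and sls 1628671_a_at), against 12.4% of all probe sets. Mlc1 differed by 1.07 (SE 0.38, 95% interval 0.07 to 2.08, adjusted p = 0.377). Tm2 differed by 0.90 (SE 0.26, 95% interval 0.22 to 1.59, adjusted p = 0.286). For sls 1628671_a_at the difference was 0.39 (SE 0.15, 95% interval 0.01 to 0.77, adjusted p = 0.397). These 3 are also the members whose LID RNAi arrays both exceeded both GFP RNAi arrays, as happened for 21.2% of all probe sets, and none had the groups apart the other way, beside 20.7%. Troponin T (up) differed by 0.49 and bt by 0.58, with intervals that include 0 (−0.25 to 1.24 and −0.97 to 2.13). Mlc2 differed by −0.07, with an interval of −0.54 to 0.40. The median over the 8 probe sets was 0.44, beside 0.01 over all probe sets tested.

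Against wild type discs, sls rose in LID RNAi discs. Its probe set 1628671_a_at was higher by 1.11 on the log2 scale (SE 0.15, 95% interval 0.73 to 1.49), a 2.16-fold ratio, with limma adjusted p = 0.0414 and both LID RNAi arrays above both wild type arrays. It was the only member probe set called, 1 of 8, beside 2.34% of all probe sets called in either direction and 0.852% called higher. At an unadjusted p under 0.05 there were 4 of 8, beside 16.9% of all, and 6 of 8 had a difference above 0, beside 48% of all. The call depended on single arrays: it was kept when LID RNAi replicate 1 was left out (adjusted p = 0.0491), and lost without any 1 of the other 5 arrays (adjusted p between 0.101 and 0.212) or in a fit without the GFP RNAi arrays (adjusted p = 0.105). The difference without a given array ran between 0.95 and 1.27.

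The second informative sls probe set (1635445_at) differed by 1.22 between LID RNAi and wild type discs (SE 0.22, 95% interval 0.66 to 1.78, adjusted p = 0.0753), a 2.33-fold ratio short of the threshold. Mlc1 differed by 1.32 (SE 0.38, 95% interval 0.32 to 2.33, adjusted p = 0.191), the widest difference of any member, with a wider error than sls. Tm2 differed by 0.95 (SE 0.26, 95% interval 0.27 to 1.64, adjusted p = 0.173). These genes have both LID RNAi arrays above both wild type arrays, as does up (0.48, 95% interval −0.26 to 1.23), which makes 5 of 8 probe sets against 20.7% of all. For bt the difference was 0.41, with an interval of −1.13 to 1.96. In the other direction, Mlc2 differed by −0.46 (SE 0.18, 95% interval −0.94 to 0.01, adjusted p = 0.303), with both LID RNAi arrays below both wild type arrays. The dim sls probe set did the same at −0.21, so 2 of 8 did so against 26.4% of all. The median over the 8 probe sets was 0.72, beside −0.01 over all probe sets tested.

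The comparison of GFP RNAi with wild type discs sets the controls against each other. None of the 8 probe sets was called by limma in this comparison, beside 0.863% of all probe sets, and 2 had an unadjusted p under 0.05, beside 11.4%. Both were sls. Probe set 1628671_a_at was higher in GFP RNAi discs by 0.72 (95% interval 0.34 to 1.11, adjusted p = 0.16), and 1635445_at by 0.89 (95% interval 0.32 to 1.45, adjusted p = 0.225). For each, both GFP RNAi arrays lay above both wild type arrays, as for 19% of all probe sets. Mlc1, Tm2, up and bt differed by 0.25, 0.05, −0.01 and −0.17, each with an interval that includes 0, the widest being bt at −1.71 to 1.38. Mlc2 differed by −0.39 (95% interval −0.87 to 0.08, adjusted p = 0.52), with both GFP RNAi arrays below both wild type arrays. Of the 8 differences 4 were above 0, as were 45.2% of all, and 2 were below without overlap, beside 26.7%. Their median was 0.02, beside −0.02 over all probe sets. This comparison shares its wild type arrays with the one before and its GFP RNAi arrays with the first.

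**Figure D2:**
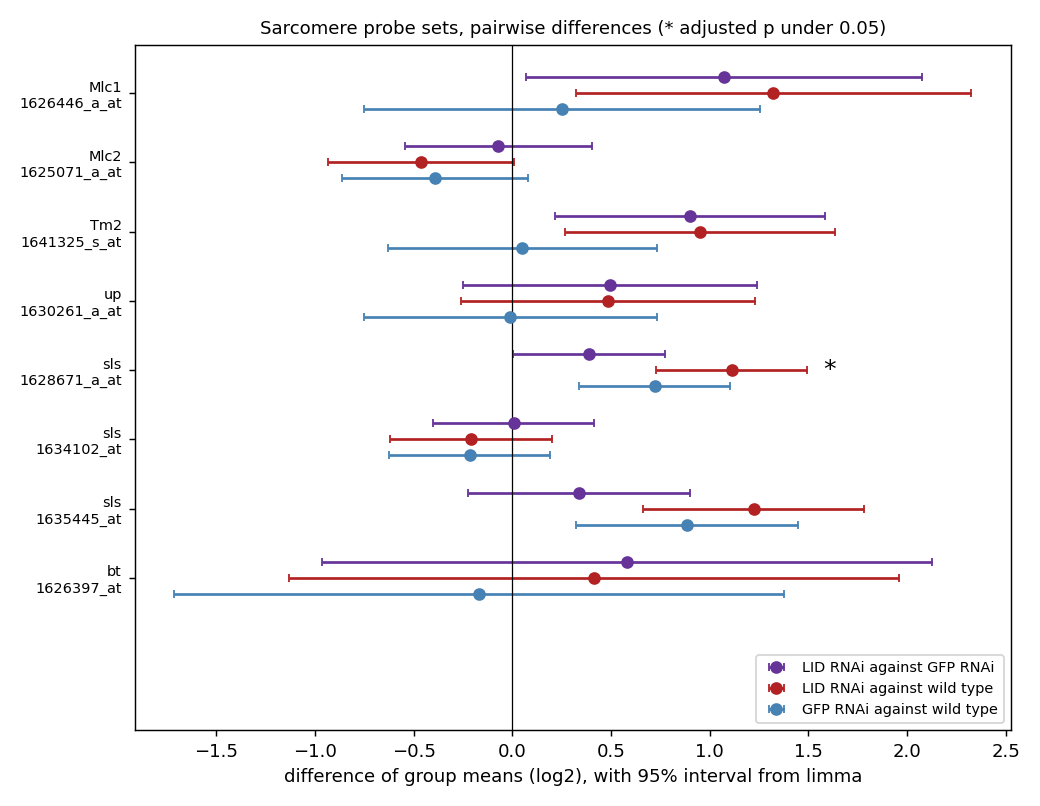
Difference of group means (log2, horizontal axis) with its 95% interval from limma for each of the 8 sarcomere probe sets; purple is LID RNAi against GFP RNAi, red LID RNAi against wild type and blue GFP RNAi against wild type, and the star marks an adjusted p under 0.05. Mlc1 and Tm2 lie above 0 in both comparisons of LID RNAi discs. Between the controls they lie at 0.25 (−0.75 to 1.26) and 0.05 (−0.63 to 0.74), with intervals that include 0. The sls probe sets 1628671_a_at and 1635445_at lie above 0 in the comparisons with wild type, at 1.11 and 1.22 for LID RNAi and 0.72 and 0.89 for GFP RNAi.

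Set against the mean of both controls, which uses the same arrays again, LID RNAi discs had no sarcomere probe set past the threshold in limma, beside 1.43% of all probe sets. At an unadjusted p under 0.05 there were 4 of 8, beside 16% of all. The differences were 1.20 for Mlc1 (adjusted p = 0.192), 0.93 for Tm2 (adjusted p = 0.157), 0.75 for sls 1628671_a_at (adjusted p = 0.0796) and 0.78 for sls 1635445_at (adjusted p = 0.149). Mlc1, Tm2 and sls 1628671_a_at had both LID RNAi arrays above all 4 control arrays, 3 of 8 against 10.6% of all probe sets, and none had both below all 4, beside 12.8%. Differences above 0 numbered 6 of 8, beside 49.7% of all. The median of the 8 was 0.62, beside −0.00 over all probe sets.

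The arrays of a group also differed from each other. Mlc1, Tm2, up and bt were higher on replicate 1 than on replicate 2 in both RNAi groups. The gap was widest for bt, at 1.16 between the LID RNAi arrays and 1.38 between the GFP RNAi arrays, beside −0.23 between the wild type arrays. For Mlc1 it was 0.48 between the LID RNAi arrays, 1.0 between the GFP RNAi arrays and 0.36 between the wild type arrays. The sls probe sets clear of background ran the other way: replicate 1 minus replicate 2 was −0.33 in LID RNAi and −0.21 in GFP RNAi for 1628671_a_at, and −0.45 and −0.40 for 1635445_at. The dim sls probe set (1634102_at) stood at 0.33 in LID RNAi and 0.28 in GFP RNAi. Mlc2 followed neither course, at 0.02 between the LID RNAi arrays and −0.51 between the GFP RNAi arrays. Replicate numbers have no order, and nothing in the labels ties replicate 1 of a group to replicate 1 of another.

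**Figure D3:**
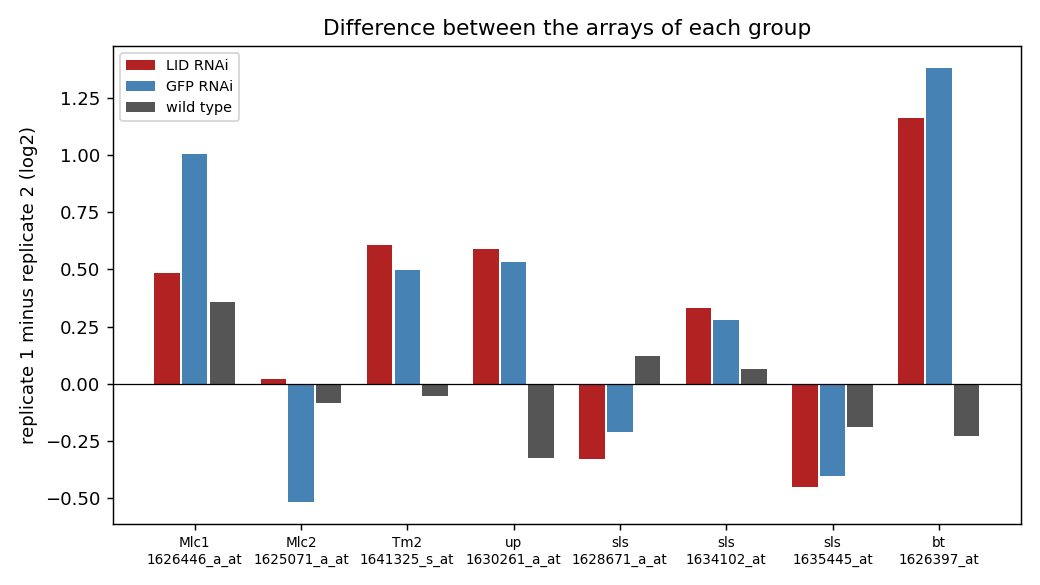
Replicate 1 minus replicate 2 (log2, vertical axis) for each of the 8 sarcomere probe sets, with a bar for LID RNAi (red), GFP RNAi (blue) and wild type (grey). Mlc1, Tm2, up and bt have bars above 0 in both RNAi groups, up to 1.16 and 1.38 for bt, sls 1628671_a_at and 1635445_at have bars below 0 there, and Mlc2 has 0.02 and −0.51.

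As means of the deviation from each probe set's 6-array mean, Mlc1, Tm2, up and bt together stood at 0.87 and 0.16 in LID RNAi discs, 0.18 and −0.67 in GFP RNAi discs and −0.31 and −0.24 in wild type discs. LID RNAi replicate 1 was the high array and GFP RNAi replicate 2 the low one. The sls probe sets clear of background (1628671_a_at and 1635445_at) stood at 0.32 and 0.70 in LID RNAi discs, −0.01 and 0.30 in GFP RNAi discs and −0.67 and −0.64 in wild type discs. These groupings were made after the values were seen and carry no test. Among the 8 members, LID RNAi replicate 1 was the highest array for 4 and GFP RNAi replicate 2 the lowest for 4, whereas of 12912 probe sets above background these arrays were highest for 17.1% and lowest for 14.4%. Over the 6 arrays, Pearson's r between a gene and the mean of the other measured members was 0.99 for Tm2, 0.93 for Mlc1, 0.91 for up, 0.66 for bt, 0.36 for sls and −0.75 for Mlc2. These points share the 6 RNA samples and 3 group differences, so the values only describe likeness.

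Markers of other tissues also differed between arrays of 1 group. Over 4 fat body probe sets the mean deviation was 0.73 and −0.76 in LID RNAi discs, 0.19 and −0.21 in GFP RNAi discs and 0.38 and −0.33 in wild type discs. As with Mlc1, Tm2, up and bt, LID RNAi replicate 1 was the high array. The low array differed, being LID RNAi replicate 2 for fat body and GFP RNAi replicate 2, at −0.67, for those genes. The storage protein receptor gene Fbp1, chosen after its values were seen, read 12.03 and 10.03 in LID RNAi discs, 11.74 and 10.94 in GFP RNAi discs and 11.56 and 10.59 in wild type discs. Over 9 salivary gland probe sets, LID RNAi replicate 2 was the high array at 0.88, and replicate 1 stood at −0.19, beside 0.11 and −0.61 in GFP RNAi discs and −0.18 and −0.02 in wild type discs. Over 14 haemocyte probe sets, the blood cell markers, the values were 0.58 and 0.30 in LID RNAi discs, −0.29 and 0.00 in GFP RNAi discs and 0.03 and −0.63 in wild type discs, both LID RNAi arrays being the highest. The part of these tissues, and of RNA completeness, in the sarcomere values was not tested.

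Past the members, 4 other thick filament genes were measured by 8 probe sets, and none rose while 1 of 8 fell in LID RNAi discs against wild type, beside 2.34% of all probe sets called there in either direction. Paramyosin (Prm), a rod protein of the thick filament core, read 8.79 and 8.14 in LID RNAi discs, 8.16 and 6.98 in GFP RNAi discs and 7.18 and 6.78 in wild type discs on probe set 1628105_a_at. Its difference against wild type was 1.48, with adjusted p = 0.216. Myofilin (Mf), another thick filament protein, read 9.67 and 9.12 in LID RNAi discs, 8.97 and 7.98 in GFP RNAi discs and 8.52 and 8.46 in wild type discs on probe set 1635372_a_at. Both genes were highest on LID RNAi replicate 1, as was Mlc1. For Mf both LID RNAi arrays lay above all 4 control arrays. For Prm 1628105_a_at, LID RNAi replicate 2 lay just below GFP RNAi replicate 1. On the other Prm probe set, 1632854_s_at, the LID RNAi arrays, at 8.97 and 8.50, lay above all 4 control arrays. Flightin (fln), a flight muscle protein, stayed within background at 3.15 to 3.74. The median of the 8 differences was 0.48 against GFP RNAi and 0.49 against wild type.

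The probe set that fell belongs to Strn-Mlck, a gene for stretchin and myosin light chain kinase forms. On 1630501_a_at it read 4.16 and 4.80 in LID RNAi discs, 5.79 and 5.86 in GFP RNAi discs and 7.01 and 7.32 in wild type discs. The 3 groups did not overlap, and both LID RNAi arrays lay within background, so that the level in wild type was at least 5.09-fold higher (limma adjusted p = 0.0188). It also fell against the mean of both controls (adjusted p = 0.0341), but not past the threshold against GFP RNAi alone (adjusted p = 0.138). A second Strn-Mlck probe set, 1634574_a_at, did not follow it, with 8.30 and 8.10 in LID RNAi discs, 8.71 and 8.70 in GFP RNAi discs and 8.11 and 7.90 in wild type discs. The probe sets of this gene therefore disagree, and the fall holds for the sequence of the first one only.

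Of 9 other thin filament genes, 7 were measured by 9 probe sets, and none was called in any comparison. The median difference was −0.10 against GFP RNAi and 0.01 against wild type. The troponin C gene TpnC73F (1631217_a_at), picked after its values were seen, read 11.67 and 11.36 in LID RNAi discs, 11.12 and 10.56 in GFP RNAi discs and 11.20 and 11.13 in wild type discs. Another TpnC73F probe set (1632439_at) read 4.96 and 6.95 in LID RNAi discs and 5.88 and 6.43 in GFP RNAi discs. In wild type discs it read 4.80 and 5.84, so the probe sets of this gene disagree. The actin gene Act87E (1636348_s_at) had the largest difference from the mean of both controls by the list's size rule, 0.51 (adjusted p = 0.257), on a probe set that can match other transcripts. The flight muscle actin Act88F and the troponin C gene TpnC4, lay within background on all arrays, with TpnC4 at 3.46 to 4.34.

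Of 9 Z disc and M line genes, 7 were measured by 11 probe sets, and none was called, although all 11 differences from wild type were above 0, beside 48% of all probe sets, and 9 of 11 from GFP RNAi were, beside 52.1%. The 11 are not independent, since Mlp60A and Zasp66 have 3 each, and some of them lie within background. The medians were small, 0.14 against wild type and 0.23 against GFP RNAi. The muscle LIM protein gene Mlp60A (1638818_at) differed most from the mean of both controls, by 1.0 (adjusted p = 0.389), with 9.17 and 8.75 in LID RNAi discs, 8.43 and 7.61 in GFP RNAi discs and 8.55 and 7.24 in wild type discs. The PDZ protein gene Zasp66 (1629383_a_at), picked after its values were seen, read 10.23 and 9.39 in LID RNAi discs. It read 9.62 and 8.69 in GFP RNAi discs and 9.39 and 9.38 in wild type discs, a spread between arrays like that of bt. Alpha-actinin (Actn) and Zasp52, which nonmuscle cells also use, were flat, with Zasp52 between 12.30 and 12.42. Among 4 measured genes for muscle calcium handling and energy supply, none was called in any comparison. The size rule names the calcium channel gene Ca-alpha1D, which read 3.79 and 6.06 in LID RNAi discs, 3.96 and 5.15 in GFP RNAi discs and 4.27 and 4.76 in wild type discs. Both control means lay within background, so no difference is given.

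Markers of the adult muscle precursors differed little between groups. Of 8 genes, 5 were measured, none was called, and the median difference was 0.14 against GFP RNAi and 0.04 against wild type. The FGF receptor gene htl had the largest difference from the mean of both controls, 0.36 (adjusted p = 0.172), with 9.75 and 9.88 in LID RNAi discs, 9.42 and 9.63 in GFP RNAi discs and 9.34 and 9.43 in wild type discs. The myoblast factor twi read 9.94 and 9.98 in LID RNAi discs, 9.83 and 9.97 in GFP RNAi discs and 9.66 and 9.90 in wild type discs, well above background throughout. The mean deviation of the 5 probe sets was 0.12 and 0.02 in LID RNAi discs, −0.16 and −0.02 in GFP RNAi discs and −0.12 and 0.16 in wild type discs.

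Of 10 genes of myoblast fusion and muscle identity, 9 were measured and none was called. Of their 10 probe sets, 2 differences from wild type were above 0, beside 48% of all probe sets, and 3 from GFP RNAi, beside 52.1%. Their median difference from wild type was −0.12, and the founder cell receptor gene kirre (1633888_s_at) differed most from the mean of both controls, by −0.67 (adjusted p = 0.0842). All 12 genes of muscle attachment and tendon were measured and none was called. The largest difference from the mean of both controls was at Tsp, the thrombospondin gene, at −0.74 (adjusted p = 0.199). Of the 14 attachment and tendon probe sets, 5 differences from wild type were above 0, beside 48% of all, and 3 from GFP RNAi, beside 52.1%. Of 9 contractile genes of nonmuscle cells, the 5 measured were nearly constant, while Act5C, Act42A, zip and sqh were not measured. The largest difference from the mean of both controls was 0.05, for the capping protein gene cpa. The median over 18 wing disc epithelium probe sets was −0.08 against wild type, with none called. The largest difference from the mean of both controls was 0.49, for the transcription factor gene rn (1639455_at, adjusted p = 0.06). Another rn probe set, 1623444_at, did not follow it. Its LID RNAi mean of 8.80 lay between the means of 8.62 in GFP RNAi and 8.96 in wild type discs.

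**Figure D4:**
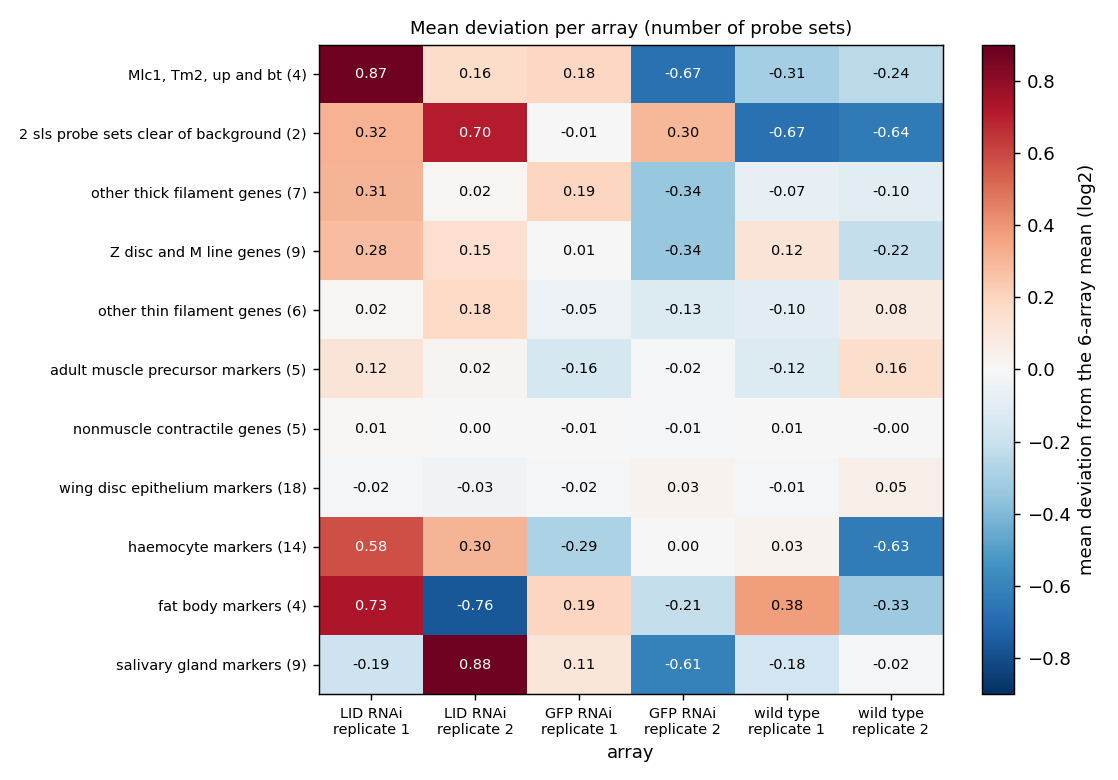
Mean deviation of each gene list from its 6-array mean (log2, colour and printed value) on each array in columns, with the number of probe sets above background in brackets. Mlc1, Tm2, up and bt reach 0.87 on LID RNAi replicate 1 and −0.67 on GFP RNAi replicate 2, the sls probe sets clear of background peak at 0.70 on LID RNAi replicate 2, the nonmuscle and epithelium rows stay within 0.05 of 0, and the fat body, haemocyte and salivary gland rows vary between arrays.

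In the lists of other cell types, the rule on calls named 2 genes. Against wild type these were 1 of 16 haemocyte and 1 of 10 salivary gland probe sets, beside 0.852% of all probe sets called higher. The crystal cell factor gene lz, a haemocyte marker, rose in LID RNAi discs, at 5.47 and 5.75, beside 3.54 and 4.25 in GFP RNAi discs and 3.55 and 3.28 in wild type discs. The wild type arrays were within background, so LID RNAi was at least 1.74-fold higher (limma adjusted p = 0.0346). The salivary gland gene ng1 read 5.36 and 5.41 in LID RNAi discs, 3.20 and 3.02 in GFP RNAi discs and 2.48 and 2.86 in wild type discs, at least 1.48-fold higher than wild type (limma adjusted p = 0.00846). Against GFP RNAi no haemocyte probe set was called. There 1 of 10 salivary gland probe sets was called, beside 0.469% of all probe sets in either direction. No tracheal, fat body or nervous system marker was called, and the largest differences from the mean of both controls were 0.74 for rib, 0.23 for apolpp and −0.52 for futsch. For rib, LID RNAi replicate 2 read 7.37, while replicate 1, at 5.47, lay inside the control range of 5.30 to 5.93. The LID RNAi arrays of apolpp, at 10.34 and 8.89, lay on either side of the control arrays, at 9.08 to 9.87.

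Outside the list, the probe sets most like the members' mean profile over the 6 arrays included other thick filament genes. They were chosen from 1610 probe sets with 1 gene symbol, a mean above background and a range of at least 1 over the arrays, as the 8 with the highest Pearson's r. Both probe sets of Mf (0.98 and 0.94) and both of Prm (0.96 and 0.94) were among them. The others were CG9877 (0.96), CG5023 (0.96), speck (0.96) and ect (0.93). CG5023 read 9.05 and 8.46 in LID RNAi discs, 8.23 and 7.71 in GFP RNAi discs and 8.09 and 8.20 in wild type discs. Each value is over 6 arrays of 3 groups and describes these arrays only.

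The gene order around the members was read from the RefSeq gene table, and the nearest measured gene on each side was compared. For Mlc1, Mlc2, Tm2 and up these neighbours differed between LID RNAi and wild type discs by at most 0.36 in either direction, none of them called. Among them, unc80 beside Mlc1 (3.89 to 4.27) and CG14866 beside Tm2 (3.80 to 4.05) stayed within background, where a difference could be hidden. RpS10a, also beside Mlc1, lay just above background at 4.86 to 5.18. The measured neighbours of bt differed by at most 0.14, but ey among them stayed within background at 3.94 to 4.47. Next to sls, zormin, a titin-like protein gene of the Z disc and M line, lies 2 genes further on. Its probe set 1636934_at, 1 of 7, read 9.17 and 9.65 in LID RNAi discs, 9.04 and 9.34 in GFP RNAi discs and 8.70 and 8.30 in wild type discs. Both RNAi groups lay above wild type, by 0.91 for LID RNAi (adjusted p = 0.155) and 0.69 for GFP RNAi (adjusted p = 0.385). Of the 7 zormin probe sets, which share 1 gene, LID RNAi arrays exceeded both wild type arrays in 5, beside 20.7% of all probe sets. GFP RNAi arrays did so in 4, beside 19% of all, and none of the 7 was called in these comparisons. The 5 include 1636349_at, which stayed within background on all arrays at 3.90 to 4.14. On the other side, CG42355 stayed within background, at 3.18 to 4.35. The zormin values were singled out after they were seen.

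**Figure D5:**
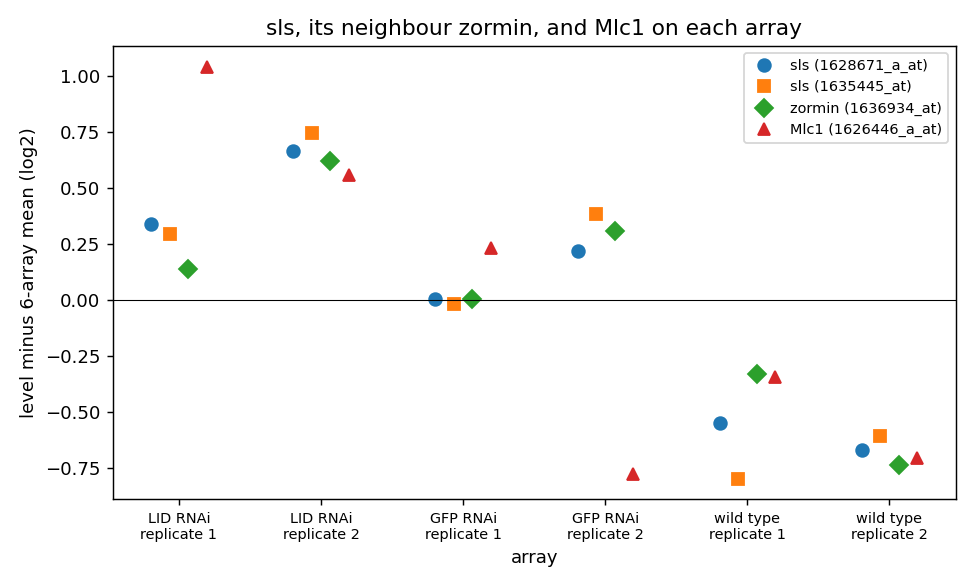
Level minus 6-array mean (log2, vertical axis) on each array for sls probe sets 1628671_a_at (circles) and 1635445_at (squares), zormin 1636934_at (diamonds) and Mlc1 1626446_a_at (triangles). The sls and zormin points are highest on LID RNAi replicate 2 and lowest on the wild type arrays, and the Mlc1 point lies above them on LID RNAi replicate 1 and below them on GFP RNAi replicate 2.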

How the data were processed

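Affymetrix arrays of wing disc RNA, 2 for each of LID RNAi, GFP RNAi and wild type, were used as deposited. The values are log2 expression per probe set that the authors made by RMA, per the submitters' processing notes; its version and the genome build are not given in the sources used here. The table holds 18952 probe sets: 183 manufacturer's controls were left out and 18769 tested. Of these, 13647 have 1 gene symbol in the platform annotation, 402 several and 4720 none. No level was normalized again. R 4.3.3 and limma 3.58.1 served to fit 1 mean per group to the 6 arrays (lmFit and eBayes; 3 residual and 1.77 prior degrees of freedom), two-sided, with Benjamini-Hochberg adjustment over all 18769. The fit was tested on simulated data. Precision is limited by the 2 arrays per group.

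The members and gene lists were chosen with earlier results of these data known. Named genes were all members; in other lists, every gene past the threshold and otherwise the one with the largest difference between LID RNAi and the mean of both controls; and the 8 probe sets most like the members. TpnC4, TpnC73F, Act88F, fln, twi, Actn, Zasp52, Zasp66, Fbp1, vg, ap, tsh, en, zormin, CG42355, unc80, CG14866, RpS10a and ey were named after their values were seen. Same-numbered arrays were checked for pairing: their deviations correlated at 0.30 (LID RNAi and GFP RNAi), 0.22 (LID RNAi and wild type) and 0.06 (GFP RNAi and wild type), so the numbers were not taken as pairs. Alternatives were other normalization, a filter on dim probe sets, other eBayes settings, a fit of 2 groups, a replicate block and leaving out each array.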

Additional observations from a re-analysis of the deposited data

How the results depend on the processing

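For LID RNAi against wild type, 1 sarcomere probe set was called; a fit of those 2 groups called 0 and an intensity trend in eBayes called 2, with sls 1635445_at added (adjusted p = 0.0351). Leaving out 1 array gave 0 to 1. Against the mean of both controls the trend called 1, sls 1628671_a_at (adjusted p = 0.0361), where the reported fit called 0. Same-numbered arrays share only a number; with the replicate block 1 probe set was called against wild type, but sls 1635445_at (adjusted p = 0.0415) in place of 1628671_a_at (adjusted p = 0.065), and calls over all probe sets numbered 200 with the block and 439 without. The 2-group fit called 99 and the trend 784. The median difference of the 8, without 1 array, ran 0.36 to 0.52 for LID RNAi against GFP RNAi, 0.42 (without LID RNAi replicate 1) to 0.97 (without LID RNAi replicate 2) against wild type, 0.41 to 0.69 against both controls, and −0.22 to 0.41 for GFP RNAi against wild type (without GFP RNAi replicates 1 and 2).

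Signs turned only for differences that were not called. Quantile normalization gave −0.033 for sls 1634102_at in LID RNAi against GFP RNAi and 0.028 for up in GFP RNAi against wild type, and centred medians also gave 0.027 for up. Without 1 array, LID RNAi against GFP RNAi ran −0.11 to 1.27 for bt, −0.33 to 0.19 for Mlc2 and −0.16 to 0.17 for sls 1634102_at. Against wild type bt ran −0.17 to 0.99, and against both controls bt ran −0.084 to 1.08 and sls 1634102_at −0.27 to 0.066. GFP RNAi against wild type ran −0.25 to 0.75 for Mlc1, −0.20 to 0.30 for Tm2, −0.28 to 0.26 for up and −0.86 to 0.52 for bt. Of 408 single values under all alternatives, 392 kept their sign; the causes were not tested. Signal near background limits, among others, sls 1634102_at, Ca-alpha1D and Strn-Mlck 1630501_a_at.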
